A study of Homo sapiens with 18 samples.

Results

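The 36 genes described here encode the enzymes of glycolysis, the carriers of glucose and lactate, and a set of genes that respond to low oxygen. They were chosen by name. All 36 were found among the 39496 genes of the count and RPKM tables and among the 20144 genes that passed the filter on low counts. RNA was sequenced from 18 libraries, 3 in each of 6 groups. UM-UC-3 and T24 are established human bladder cancer cell lines, both labelled as wild type. Each was transfected with siNC, a negative control siRNA, or with siACAT1-1 or siACAT1-2. These siRNAs differ in sequence and target ACAT1, the mitochondrial acetyl-CoA acetyltransferase. UM-UC-3 cells were grown in MEM and T24 cells in RPMI-1640, so medium and cell line go together, and no culture under low oxygen is named for these libraries. ACAT1 fell in every siRNA group (edgeR adjusted p from 1.66e-08 to 2.54e-07 over the 4 comparisons with siNC). Levels are given as RPKM, reads per kilobase of gene length scaled to the counted reads of the library. In UM-UC-3, ACAT1 was at 46.0 ± 1.68 RPKM (SD, n = 3) in siNC, 3.05 ± 0.703 in siACAT1-1 and 2.16 ± 0.544 in siACAT1-2 libraries. The T24 groups were at 16.2 ± 1.40, 1.29 ± 0.149 and 0.792 ± 0.122 RPKM in the same order.

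Glycolysis splits glucose into pyruvate in the cytosol. Hexokinases trap glucose, phosphofructokinase commits it, and the lower enzymes from GAPDH to PKM recover ATP and NADH. Pyruvate then enters the mitochondrion or is reduced to lactate by lactate dehydrogenase, and lactate leaves through monocarboxylate carriers. Hypoxia-inducible factor (HIF) raises many of these genes when oxygen falls, because the prolyl hydroxylases that mark its alpha subunits for destruction need oxygen. Tumour cells often run glycolysis hard even when oxygen is present. HIF1A encodes the main alpha subunit and is controlled largely at the protein level.

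HIF binds a short core that reads ACGTG or GCGTG on either strand. The promoter windows of 4 members are shown as examples from the contrasts described here. LDHA and PGK1 fell together in some replicates, and DDIT4 was above the mean of the other replicates there. PGK1 and P4HA1 rose after the siRNAs once the replicate number was modelled. The windows are RefSeq's (GRCh38.p14) and run from 250 bases before to 50 bases after an annotated start, 5′ to 3′ on the gene's strand. Capitals mark ACGTG or its reverse complement CACGT, which overlap where they make CACGTG.
LDHA, chr11:18394313-18394612, plus strand: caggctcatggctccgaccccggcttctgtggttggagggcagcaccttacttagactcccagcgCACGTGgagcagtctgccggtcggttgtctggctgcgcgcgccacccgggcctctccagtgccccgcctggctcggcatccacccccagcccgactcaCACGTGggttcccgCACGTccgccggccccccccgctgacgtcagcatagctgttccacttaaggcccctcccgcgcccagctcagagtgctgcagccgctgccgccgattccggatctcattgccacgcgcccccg
PGK1, chrX:78103998-78104297, plus strand: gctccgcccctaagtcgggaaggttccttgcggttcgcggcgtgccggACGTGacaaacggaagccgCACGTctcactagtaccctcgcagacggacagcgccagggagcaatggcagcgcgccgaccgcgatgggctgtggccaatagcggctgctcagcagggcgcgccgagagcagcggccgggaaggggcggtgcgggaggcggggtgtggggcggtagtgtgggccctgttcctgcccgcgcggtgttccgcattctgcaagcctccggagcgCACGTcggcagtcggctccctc
P4HA1, chr10:73096817-73097116, minus strand: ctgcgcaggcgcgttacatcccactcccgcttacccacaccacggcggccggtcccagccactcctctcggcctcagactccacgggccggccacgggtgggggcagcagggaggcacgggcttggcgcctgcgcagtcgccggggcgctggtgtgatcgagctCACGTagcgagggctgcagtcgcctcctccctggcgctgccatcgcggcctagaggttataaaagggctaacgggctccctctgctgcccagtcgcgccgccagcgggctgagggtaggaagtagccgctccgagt
DDIT4, chr10:72273674-72273973, plus strand: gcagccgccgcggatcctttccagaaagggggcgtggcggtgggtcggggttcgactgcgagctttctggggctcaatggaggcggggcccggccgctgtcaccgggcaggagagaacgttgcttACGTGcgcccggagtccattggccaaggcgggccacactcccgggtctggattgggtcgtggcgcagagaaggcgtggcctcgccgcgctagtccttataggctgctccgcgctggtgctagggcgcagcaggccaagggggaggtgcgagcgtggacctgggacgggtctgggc
The LDHA window held 3 separate places with the ACGTG core, the PGK1 window 3, and the P4HA1 and DDIT4 windows 1 each. A further LDHA window of RefSeq, chr11:18396101-18396400, held 0. The RefSeq window of PGAM1, which fell with LDHA, held 0 and is not printed. The windows shown were chosen knowing that each holds a core. Windows were given for 31 of the 36 members, 59 windows in all. ACGTG or CACGT was in 39.0% of them and in 21.4% of all 35116 windows of the same length. For GCGTG or CACGC the shares were 42.4% and 36.5%. Known HIF targets are among the members by choice, so nothing is read from this difference, and a match of letters is not a bound site. In the authors' table (GRCh38) LDHA lies on chromosome 11 from 18394388 to 18408425 and PGK1 on chromosome X from 78065188 to 78129296. P4HA1 lies on chromosome 10 from 73007217 to 73096974 and DDIT4 on chromosome 10 from 72273920 to 72276036.

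The libraries held 25163490 to 34417230 counted reads. The members were read deeply, with a median of 38347 reads per gene over all 18 libraries against 3664.5 for all genes tested, and a deeply read gene passes a test more easily at a given change. CA9 and EGLN3 were the exceptions, with 113 and 129 reads in all. Libraries with the same replicate number deviated together within a cell line, and number 3 of UM-UC-3 and number 2 of T24 stood furthest from the others. Both lines had the epithelial keratins KRT8 and KRT18. KRT5, CDH1, the uroplakins UPK1B and UPK3A and the blood cell markers PTPRC and CD3E were at or near 0. Some members may share reads with another gene. Rows of SLC2A3 copies held 74.6% as many reads as SLC2A3 itself. Of the exon bases of DDIT4, CA9, ANKRD37 and GAPDH, 41.2%, 38.5%, 35.2% and 14.2% lie over a gene on the opposite strand.

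Members differed between the control libraries of the cell lines in both directions. T24 cells had more HK1, SLC16A3, SLC2A3 and HIF1A RNA. UM-UC-3 cells had more HK2, GPI and PDK1 and more of 7 hypoxia response genes. The 6 lower enzymes from GAPDH to PKM did not pass the test between the lines. HK1 and HK2 encode hexokinases, and HK2 is the form that many tumours induce. HK1 was at 4.10, 3.99 and 6.57 RPKM in the UM-UC-3 siNC libraries 1, 2 and 3 and at 49.4, 54.5 and 46.0 in those of T24. Its log2 fold change, UM-UC-3 over T24, was -3.31 (SE 0.30, adjusted p = 1.79e-07) by the quasi-likelihood test of edgeR, adjusted by Benjamini-Hochberg over all genes, which was used for every gene below. HK2 was at 12.5, 11.4 and 12.6 RPKM in UM-UC-3 and at 4.60, 3.32 and 3.26 in T24, a log2 fold change of 1.74 (SE 0.30, adjusted p = 1.55e-04). The lines did not overlap for either gene. HK2 made up 71.8% ± 5.19 (SD, n = 3) of the hexokinase RPKM in UM-UC-3 and 6.96% ± 1.42 in T24.

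The carriers differed too. SLC16A3, through which glycolytic cells export lactate, was at 0.453, 0.734 and 0.328 RPKM in UM-UC-3 and at 8.64, 6.84 and 9.69 in T24, without overlap. Its log2 fold change was -4.00 (SE 0.41, adjusted p = 8.33e-07). SLC16A1, the more widely expressed lactate carrier, was at 18.4, 25.1 and 18.1 RPKM in UM-UC-3 and 17.0, 32.6 and 21.6 in T24, with overlap, and its log2 fold change was -0.15 (SE 0.20, adjusted p = 0.582). SLC16A3 was therefore 2.34% ± 0.538 of the RPKM of these carriers in UM-UC-3 and 27.3% ± 8.75 in T24. SLC2A1, the common glucose carrier, was at 6.13, 6.11 and 5.60 RPKM in UM-UC-3 and 3.93, 2.92 and 4.84 in T24. It did not pass the test, with a log2 fold change of 0.65 (SE 0.33, adjusted p = 0.125). SLC2A3, a high-affinity glucose carrier, was low in both lines, at 0.311, 0.364 and 0.636 RPKM in UM-UC-3 and 0.877, 3.08 and 1.05 in T24. Its log2 fold change of -1.87 (SE 0.56, adjusted p = 0.0121) was lost without UM-UC-3 siNC library 1 or T24 siNC library 2, with an adjusted p of up to 0.0965.

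Among the hypoxia response genes, HIF1A went the other way from the targets that were called. HIF1A was at 9.75, 10.7 and 8.97 RPKM in UM-UC-3 and 17.6, 35.4 and 19.0 in T24, a log2 fold change of -1.23 (SE 0.26, adjusted p = 0.00121). KDM3A, a histone demethylase that HIF induces, was at 8.37, 9.93 and 9.27 and 3.25, 3.47 and 3.50 RPKM, a log2 fold change of 1.48 (SE 0.16, adjusted p = 1.38e-06). NDRG1, a stress-induced gene, was at 9.82, 12.3 and 8.23 and 1.34, 4.29 and 4.07 RPKM, a log2 fold change of 1.72 (SE 0.46, adjusted p = 0.00566). The lines did not overlap for any of these 3 genes. ANKRD37 was higher in UM-UC-3 by 0.99 on the log2 scale, the mitophagy receptors BNIP3 and BNIP3L by 0.97 and 0.71, and the peptide hormone gene ADM by 1.24. PDK1, the kinase that shuts pyruvate dehydrogenase, was higher by 1.44 and GPI, the isomerase that follows hexokinase, by 1.24. EGLN3, a prolyl hydroxylase that acts on HIF, was called but rests on 2, 23 and 14 reads in UM-UC-3 against 1, 1 and 2 in T24, so no fold is given. CA9, a carbonic anhydrase, had 4, 15 and 7 reads against 1, 0 and 3. Leaving out 1 siNC library ended the call for BNIP3 (5 of the 6 libraries), BNIP3L (4), ADM and EGLN3 (3 each) and GPI (T24 library 2), with adjusted p of up to 0.206.

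In all, 14 of the 36 members (38.9%) differed between the control libraries, 10 higher in UM-UC-3 and 4 lower. This is below the 44.3% of all genes that were called. The members' median log2 fold change was 0.49, toward UM-UC-3, beside 0.03 for all genes, and 22 of 36 were positive beside 51.2% of all genes. The median absolute log2 fold change was 0.69 over the members and 0.69 over all genes. Without T24 siNC library 2 the count fell to 8. Cell line and culture medium cannot be told apart in this comparison, and in RNA from whole cultures fewer cells that express a gene cannot be told apart from less RNA per cell.

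**Figure D1:**
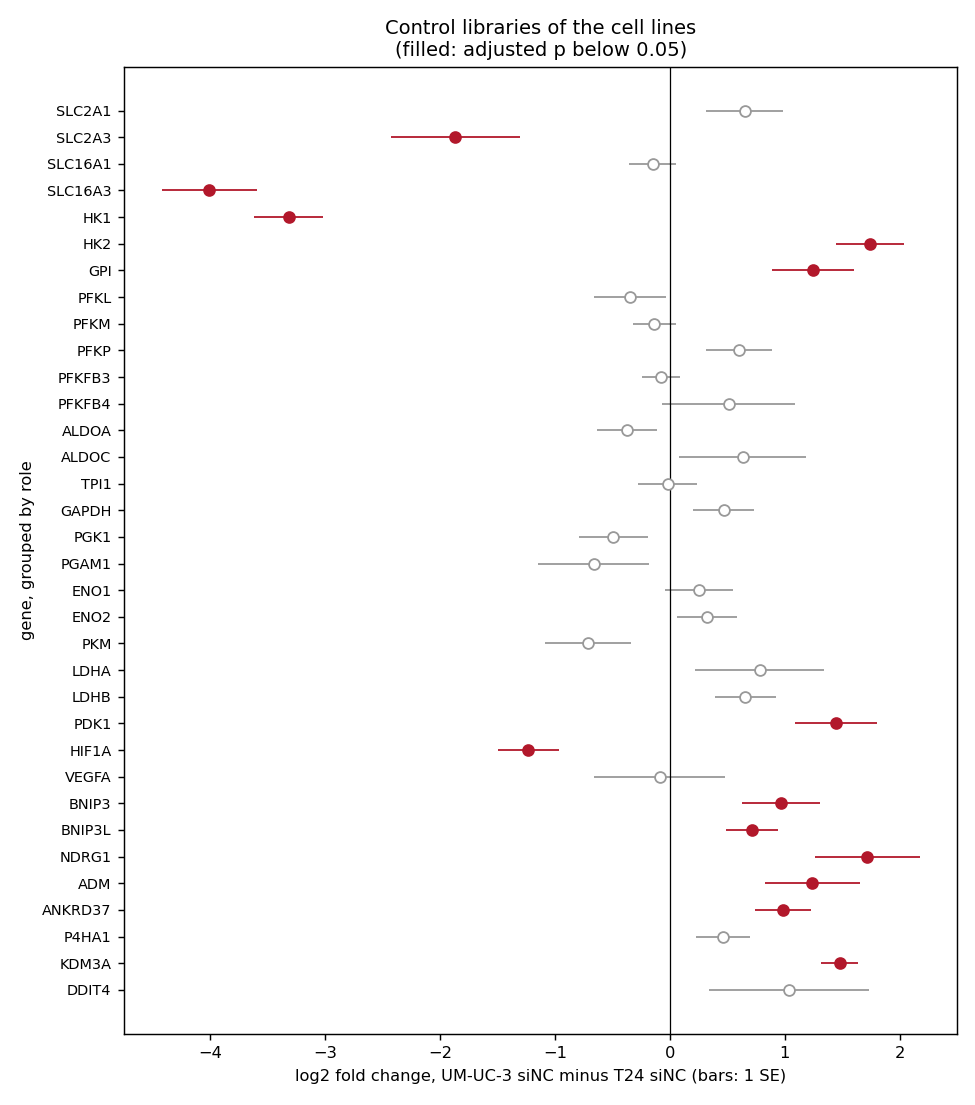
Log2 fold change between the control libraries (UM-UC-3 siNC minus T24 siNC, x axis) for 34 members grouped by role (y axis), with bars of 1 SE and filled points for an adjusted p below 0.05. HK1 and SLC16A3 lie furthest to the left at -3.31 and -4.00, the enzymes from GAPDH to PKM all have open points, and CA9 and EGLN3 are left out for their few reads.

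Several lower enzymes were among the most abundant members per kilobase in both lines. GAPDH was at 770.2 ± 58.0 RPKM (SD, n = 3) in UM-UC-3 and 571 ± 159.9 in T24. ENO1, the main enolase, was at 558 ± 114 and 482 ± 121, and TPI1, which interconverts the triose phosphates, at 215 ± 30.5 and 224 ± 36.8. ENO1 and TPI1 differed between the lines by less than the spread of the libraries. PKM, the pyruvate kinase of proliferating cells, was at 116 ± 14.3 and 195 ± 57.2 RPKM. LDHB, the lactate dehydrogenase subunit of oxidative tissues, was at 396 ± 5.38 and 257 ± 75.4, and LDHA, the subunit that favours lactate, at 129 ± 56.6 and 77.2 ± 29.7. LDHA thus made up 23.9% ± 8.33 of the lactate dehydrogenase RPKM in UM-UC-3 and 22.7% ± 2.41 in T24. PFKP, the platelet type of phosphofructokinase, made up 80.6% ± 2.49 of its family in UM-UC-3 and 70.6% ± 1.75 in T24, the rest being the liver type PFKL and the muscle type PFKM. ENO2, the enolase of neurons, was 1.19% ± 0.223 and 1.18% ± 0.412 of the enolase RPKM. ALDOC, the brain aldolase, was 1.71% ± 0.385 and 0.847% ± 0.0895 of the RPKM it makes with ALDOA. RPKM divides by the annotated exon length, 6210 bases for LDHA and 2983 for LDHB, so shares of RPKM are not shares of reads. In the UM-UC-3 siNC libraries LDHA had 25064, 35423 and 12853 reads and LDHB 33555, 38316 and 35955. In those of T24 LDHA had 20545, 7509 and 16110 and LDHB 32413, 14428 and 23618.

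The siRNA comparisons ask whether loss of ACAT1 moves the members. In the model of the 6 groups alone, 0 of the 36 members passed the test by edgeR in each of the 4 comparisons with siNC. Of all genes, 0.00993% and 0.0546% passed for siACAT1-1 and siACAT1-2 in UM-UC-3, and 0.124% and 0.268% in T24. At an unadjusted p under 0.05 there were 3, 2, 5 and 1 members, beside 1075, 777, 2325 and 1700 of all 20144 genes tested. DESeq2 called 0, 0, 2 and 0 members. For the mean of the 4 comparisons the count was again 0 by edgeR (background 0.223%) and 1 by DESeq2. At an unadjusted p under 0.05 there were 6 members, beside 2201 of all 20144 genes. In that mean the members' median log2 fold change was 0.16 and 32 of 36 were positive, beside a median of -0.00 and 49.8% positive for all genes.

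Once the replicate number was a term of the model, members rose and 0 fell in these comparisons. The fold changes against siNC given below for single members are from this model. The model of the groups alone called 0 members against siNC by edgeR. In the mean over both siRNAs and both lines, 10 members (27.8%) were higher, against 5.95% of all genes. They were HK1, HK2, PGK1, ENO2, SLC2A3, SLC16A3, PDK1, VEGFA, NDRG1 and P4HA1, so each role gave at least 1. A call in this mean does not show a rise with each siRNA. Of these members NDRG1, SLC2A3, VEGFA and HK2 were also called between the siRNAs, lower with siACAT1-2 than with siACAT1-1. In T24, 11 members (30.6%) rose with siACAT1-1, against 6.59% of all genes. With siACAT1-2 it was 2 (5.56%), close to the background of 4.55%. In UM-UC-3, 3 members (8.33%) rose with siACAT1-1, against 1.96%. With siACAT1-2 the count was 0, where 1.36% of all genes were called. There 8 members had an unadjusted p under 0.05, beside 2706 of all 20144 genes. The effects were also compared between the cell lines. This difference was called for 0 members in either model (background 0% without the replicate number and 0.104% with it). At an unadjusted p under 0.05 there were 0 and 3 members, beside 517 and 1905 of all 20144 genes. Both siRNAs of a line share their siNC libraries, so the comparisons are not independent of each other.

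NDRG1 had the largest change among the members called. In UM-UC-3 it was at 9.82, 12.3 and 8.23 RPKM in siNC libraries 1, 2 and 3, 19.4, 28.6 and 22.0 in those of siACAT1-1 and 18.5, 20.5 and 11.6 in those of siACAT1-2. The T24 libraries were at 1.34, 4.29 and 4.07 with siNC, 6.31, 5.77 and 18.4 with siACAT1-1 and 2.68, 5.60 and 6.10 with siACAT1-2. Both siRNAs were above siNC within every replicate number. The siACAT1-1 libraries lay above all siNC libraries in both lines, and the siACAT1-2 libraries of T24 and UM-UC-3 overlapped siNC. With siACAT1-1 the log2 fold change from the model with the replicate number was 1.22 (SE 0.23, adjusted p = 0.00744) in UM-UC-3 and 1.67 (SE 0.24, adjusted p = 2.38e-04) in T24. With siACAT1-2 it was 0.69 (SE 0.23, adjusted p = 0.161) and 0.64 (SE 0.24, adjusted p = 0.0998). Without the replicate number the adjusted p of these 4 comparisons ran from 0.133 to 1. The T24 call was kept when any 1 library was left out. The UM-UC-3 call was lost without siNC library 3 or siACAT1-1 library 3, with an adjusted p of up to 0.12.

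SLC2A3 rose in T24 as well. Its RPKM there was 0.877, 3.08 and 1.05 with siNC, 3.09, 4.59 and 5.21 with siACAT1-1 and 1.51, 3.44 and 1.54 with siACAT1-2. In UM-UC-3 the values were 0.311, 0.364 and 0.636 with siNC, 0.633, 0.587 and 1.41 with siACAT1-1 and 0.415, 0.470 and 1.65 with siACAT1-2. The T24 siACAT1-1 libraries lay just above the highest siNC library. The other siRNA groups overlapped siNC, and number 2 of T24 with siNC and number 3 of UM-UC-3 with each siRNA were the highest of their groups. With the replicate number the log2 fold change with siACAT1-1 was 1.58 (SE 0.24, adjusted p = 3.64e-04) in T24 and 0.97 (SE 0.27, adjusted p = 0.0585) in UM-UC-3. With siACAT1-2 it was 0.47 (SE 0.24, adjusted p = 0.246) and 0.75 (SE 0.28, adjusted p = 0.214), and the mean of the 4 was 0.94 (SE 0.16, adjusted p = 8.55e-04). SLC2A3 was 29.2% ± 19.2 of the RPKM of the glucose carriers in T24 siNC libraries and 55.4% ± 12.7 in siACAT1-1 libraries. Its copy SLC2A3P1 averaged 3.25 and 4.68 RPKM in these groups, and the sharing of reads between the copies was not tested. SLC2A1 had a log2 fold change of 0.41 (SE 0.14) with siACAT1-1 in UM-UC-3 and -0.18 (SE 0.14) in T24, neither past the test.

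The hexokinases moved less. HK2 in UM-UC-3 was at 12.5, 11.4 and 12.6 RPKM with siNC, at 20.3, 15.7 and 26.6 with siACAT1-1 and at 14.3, 11.4 and 17.6 with siACAT1-2. The siACAT1-1 libraries did not overlap siNC and the siACAT1-2 libraries did. The log2 fold change of HK2 with the replicate number was 0.74 (SE 0.15, adjusted p = 0.0113) and 0.17 (SE 0.15, adjusted p = 0.682) in UM-UC-3. In T24 it was 0.45 (SE 0.15, adjusted p = 0.0535) and 0.18 (SE 0.15, adjusted p = 0.531). The UM-UC-3 call was lost without siNC library 3, siACAT1-1 library 1 or siACAT1-1 library 3, with an adjusted p of up to 0.19. HK1 in T24 was at 49.4, 54.5 and 46.0 RPKM with siNC and 72.3, 63.0 and 59.6 with siACAT1-1, without overlap. Its log2 fold change of 0.39 (SE 0.12, adjusted p = 0.0399) was lost in 9 of the 18 fits that each left out a library.

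PGK1, which makes the first ATP of the pathway, was higher than siNC within every replicate number for both siRNAs in both lines. These are 12 pairs of libraries, and each siNC library enters 2 of them. In T24, PGK1 was at 51.0, 40.9 and 47.2 RPKM with siNC, 71.9, 45.3 and 73.3 with siACAT1-1 and 61.4, 50.1 and 68.3 with siACAT1-2, and the groups overlapped. Its log2 fold change with the replicate number was 0.44 (SE 0.12, adjusted p = 0.017) and 0.38 (SE 0.12, adjusted p = 0.0483) in T24. In UM-UC-3 it was 0.21 (SE 0.12, adjusted p = 0.353) and 0.38 (SE 0.12, adjusted p = 0.125). The mean of the 4 was 0.35 (SE 0.07, adjusted p = 0.00354), a call that was kept without any 1 library.

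**Figure D2:**
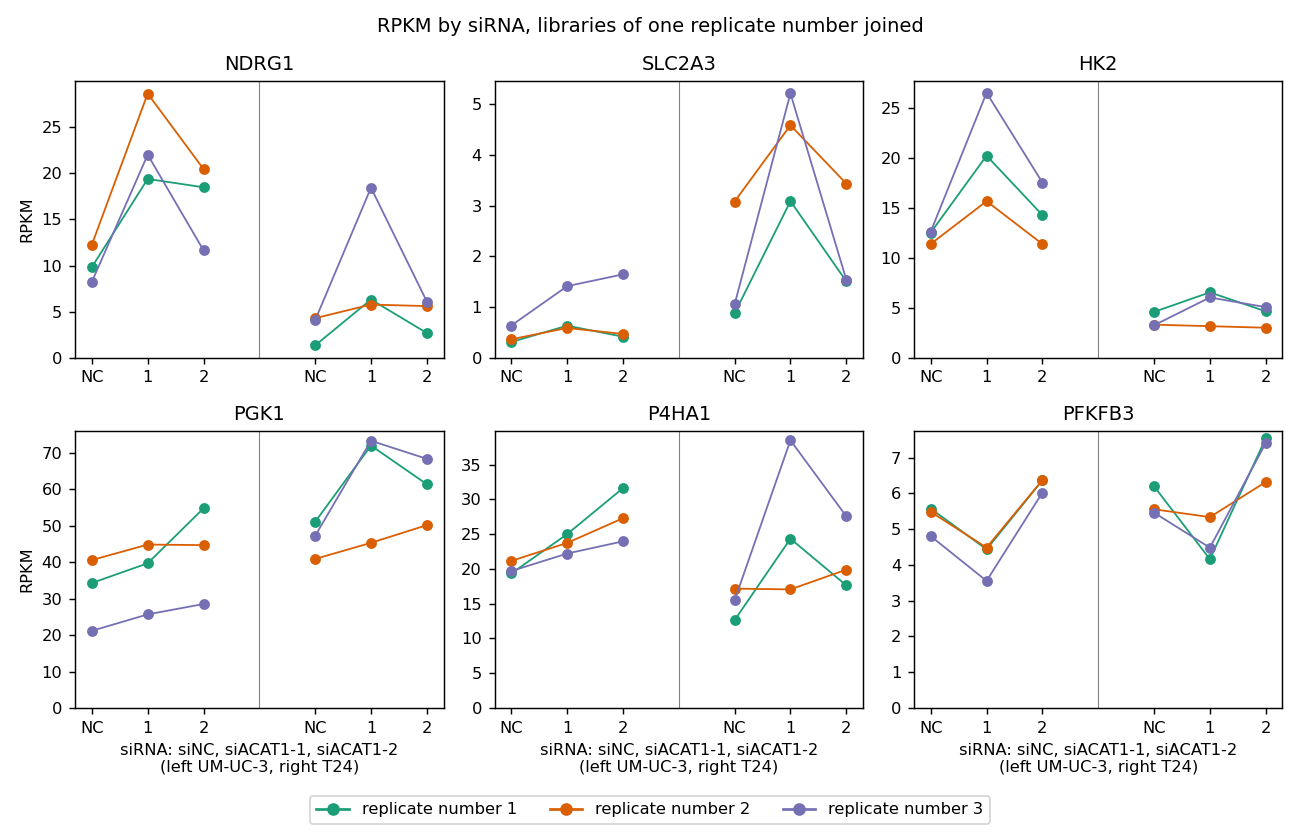
RPKM (y axis, from 0) of 6 members by siRNA (x axis, UM-UC-3 on the left and T24 on the right of each panel), with 1 point per library and lines that join the libraries of 1 replicate number. NDRG1, SLC2A3 and PGK1 lie above siNC with both siRNAs on all 6 lines, and PFKFB3 lies below siNC with siACAT1-1 and above it with siACAT1-2 on all 6.

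Of the 12 hypoxia response genes, 7 rose with siACAT1-1 in T24 in the model with the replicate number, where 6.59% of all genes rose. They belong to the 11 calls of that comparison, which became 3 without siACAT1-1 library 1 or 3. VEGFA, which drives blood vessel growth, was at 1.53, 12.5 and 6.68 RPKM with siNC and 4.64, 13.5 and 12.5 with siACAT1-1, a log2 fold change of 0.86 (SE 0.17, adjusted p = 0.00257). In UM-UC-3 it was at 4.93, 5.32 and 8.21 and 9.35, 7.98 and 14.2 RPKM, a log2 fold change of 0.77 (SE 0.17, adjusted p = 0.0205). The groups overlapped in both lines, and the spread between replicate numbers of T24 siNC was wider than the step to siACAT1-1. With siACAT1-2, VEGFA was at 2.22, 9.91 and 6.19 RPKM in T24, above siNC in 1 of 3 numbers. In UM-UC-3 it was at 5.36, 6.77 and 11.6 RPKM with siACAT1-2, above siNC in 3 of 3. P4HA1, a prolyl hydroxylase of collagen, was at 12.6, 17.2 and 15.5 RPKM with siNC and 24.3, 17.1 and 38.5 with siACAT1-1 in T24, level with siNC in number 2. Its log2 fold change was 0.77 (SE 0.16, adjusted p = 0.00407), and its mean over the 4 comparisons 0.48 (SE 0.10, adjusted p = 0.00404). BNIP3L rose by 0.58, ADM by 0.76 and KDM3A by 0.38 on the log2 scale in T24 with siACAT1-1. DDIT4, an inhibitor of mTORC1 signalling, rose by 0.84. DDIT4 and ADM did not pass the test in UM-UC-3 with either siRNA. There DDIT4 had a log2 fold change of -0.25 (SE 0.22) with siACAT1-1 and -0.43 (SE 0.23) with siACAT1-2, and was higher than siNC in 0 and 1 of 3 numbers. ADM had 0.06 (SE 0.22) and -0.79 (SE 0.23, adjusted p = 0.0914) there. With siACAT1-2 in T24, DDIT4 had a log2 fold change of -0.38 (SE 0.23) and BNIP3L of -0.26 (SE 0.13), neither past the test. HIF1A was not called in any of the 4 comparisons, with log2 fold changes from -0.15 to 0.23.

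The rest of the pathway gave few calls in the model with the replicate number. PGAM1, a mutase of the lower pathway, rose with siACAT1-1 in T24 by 0.49 (SE 0.13, adjusted p = 0.0139) on the log2 scale. PDK1 rose with siACAT1-2 in T24 by 0.61 (SE 0.19, adjusted p = 0.0497), a call that held in 3 of the 18 fits without a library. The most abundant enzymes did not pass the test. Over the 4 comparisons the mean log2 fold change was 0.03 (SE 0.06) for ENO1, 0.11 (SE 0.06) for GAPDH and 0.09 (SE 0.07) for PKM. It was 0.09 (SE 0.09) for LDHA and -0.01 (SE 0.06) for LDHB. ALDOC, with 795 reads in all, had 0.94 (SE 0.40) with siACAT1-1 and -0.90 (SE 0.45) with siACAT1-2 in T24, neither past the test.

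The counts with the replicate number depended on single libraries. In T24 with siACAT1-1 the 11 became 3 without siACAT1-1 library 1 or 3, 4 without siNC library 3 and 6 without siNC library 1. It became 18 without siACAT1-1 library 2. In UM-UC-3 with siACAT1-1 the 3 became 0 without siNC library 3 or siACAT1-1 library 3, 1 without siACAT1-1 library 1 and 5 without T24 siNC library 2. The 10 of the mean became 6 without UM-UC-3 siNC library 3 and 5 without T24 siNC library 3. NDRG1, SLC2A3, VEGFA, PGK1 and P4HA1 stayed called in that mean in all 18 such fits. In T24 with siACAT1-2 the 2 lay between 0 and 4, and it was 0 without UM-UC-3 siNC library 2 or 3, any UM-UC-3 siACAT1-1 library, UM-UC-3 siACAT1-2 library 3, T24 siNC library 1 or 3, T24 siACAT1-1 library 1, or T24 siACAT1-2 library 1 or 3. In UM-UC-3 with siACAT1-2 the 0 became 2 without T24 siACAT1-1 library 2 and 1 without T24 siNC library 2, siACAT1-1 library 3, or siACAT1-2 library 2 or 3. In the model of the groups alone, 2 members were called for siACAT1-1 in T24 and 1 in the mean without T24 siACAT1-1 library 2. Without number 3 of UM-UC-3 and number 2 of T24, the counts with the replicate number were 1 and 2 for UM-UC-3, 16 and 3 for T24, and 9 for the mean. PFKFB3 was then lower in T24 with siACAT1-1, at -0.44 on the log2 scale, and the other 15 of the 16 were higher.

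**Figure D3:**
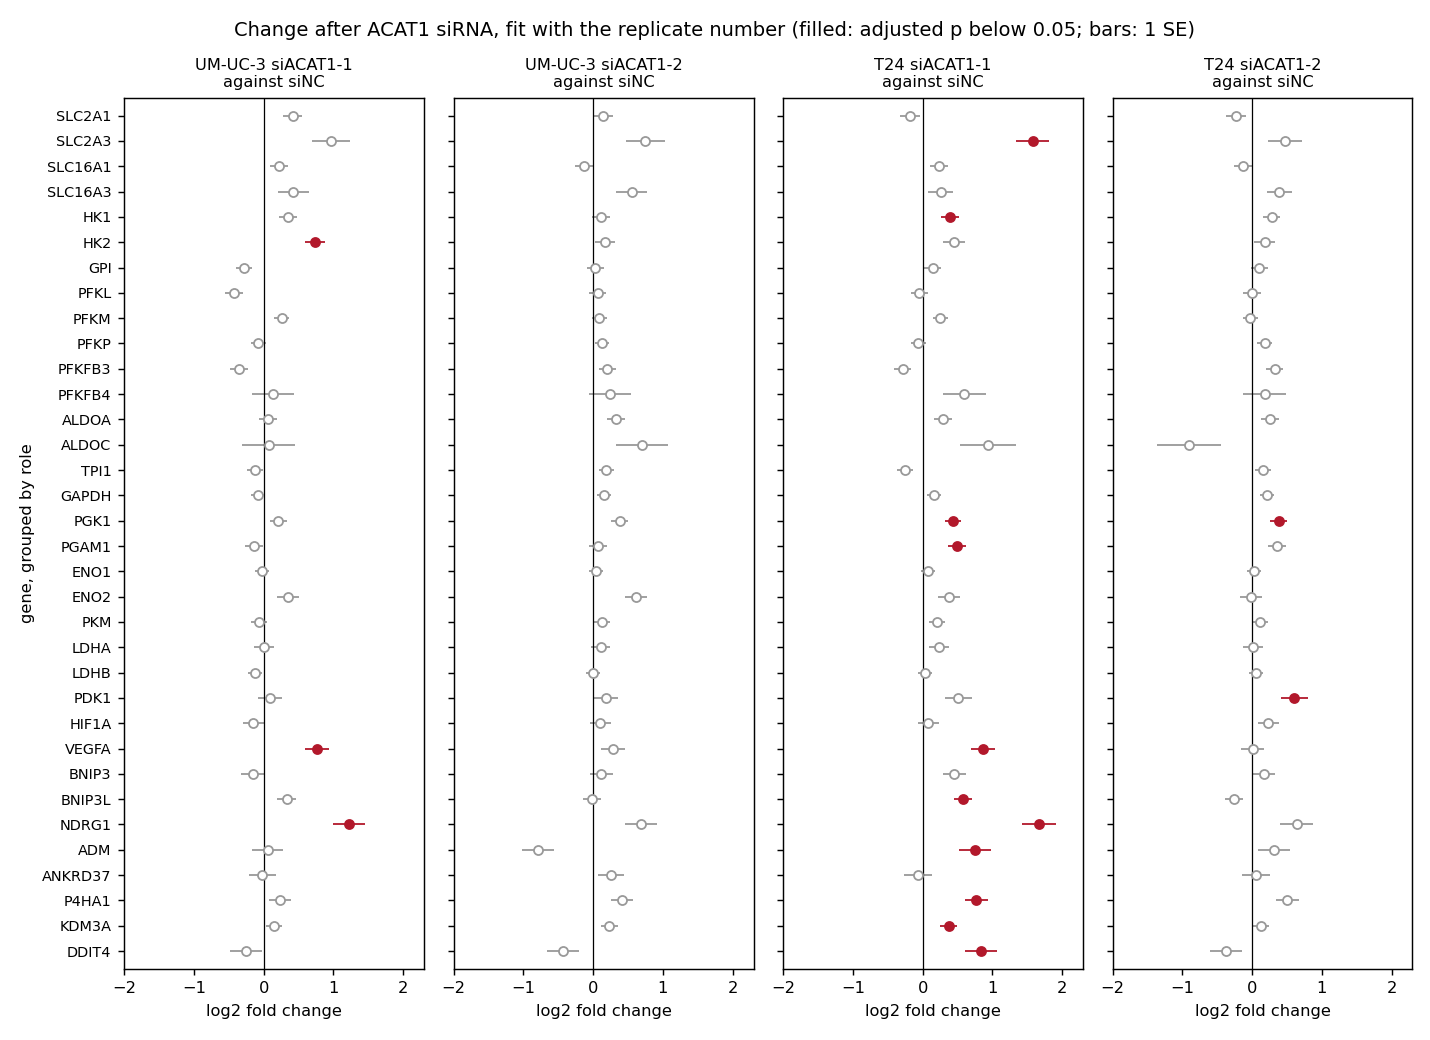
Log2 fold change against siNC (x axis) of 34 members (y axis, grouped by role) in the 4 siRNA comparisons, from the model with the replicate number, with bars of 1 SE and filled points for an adjusted p below 0.05. The filled points number 3, 0, 11 and 2 from left to right and all lie to the right of 0.

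The siRNAs against ACAT1 differed from each other in some members. PFKFB3, the kinase that makes the allosteric activator of phosphofructokinase, was the 1 member called between them without the replicate number (2.78% of the members, background 2.56%). In UM-UC-3 it was at 5.57, 5.48 and 4.80 RPKM with siNC, 4.43, 4.48 and 3.55 with siACAT1-1 and 6.36, 6.37 and 6.02 with siACAT1-2. In T24 it was at 6.20, 5.55 and 5.46, 4.16, 5.34 and 4.48 and 7.53, 6.32 and 7.40. The siACAT1-1 libraries lay below all siNC libraries and the siACAT1-2 libraries above all of them in both lines. The log2 difference, siACAT1-2 minus siACAT1-1 over both lines, was 0.59 (SE 0.11, adjusted p = 0.0129), and 0.58 (SE 0.09, adjusted p = 1.59e-04) with the replicate number. Against siNC the log2 fold changes with siACAT1-1 were -0.35 (SE 0.13) in UM-UC-3 and -0.29 (SE 0.13) in T24. With siACAT1-2 they were 0.20 (SE 0.13) and 0.32 (SE 0.13), and none of the 4 passed the test. Without T24 siACAT1-2 library 2 the count of members called between the siRNAs was 2.

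With the replicate number, 13 members (36.1%) differed between the siRNAs, against 20.6% of all genes. Higher with siACAT1-2 were PFKFB3, PFKL (0.27 on the log2 scale), PFKP (0.22) and TPI1 (0.36), all of upper glycolysis. The hypoxia response genes called were all lower with siACAT1-2. They were NDRG1 (-0.78), DDIT4 (-0.70), VEGFA (-0.67), ADM (-0.64) and BNIP3L (-0.59). Also lower were SLC2A3 (-0.66), SLC16A1 (-0.36), HK2 (-0.42) and PFKM (-0.23). The calls for PFKL, PFKP and PFKM were lost in 9, 10 and 10 of the 18 fits without a library. That of SLC2A3 was lost without T24 siACAT1-1 library 3 (adjusted p 0.0533), and the other 9 held in all. ACAT1 itself differed by -0.62 on the log2 scale (adjusted p = 8.16e-04), lower with siACAT1-2.

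By a test over all replicate numbers of a line, more members were called than in any comparison of siACAT1 with siNC. The tests are unlike, because the number is tested over all libraries of a line and a siRNA comparison sets 3 libraries against 3. Single numbers did not all exceed the siRNA counts. Each number joins the 3 libraries of a cell line that carry it in the labels, 1 per siRNA, and neither the labels nor the study's methods say what it marks. In a model with the 6 groups and the number within cell line, edgeR's F test called the number for 19 of 36 members (52.8%) in UM-UC-3, against 24.6% of all genes. In T24 it called 30 (83.3%), against 43.9%. Number 3 of UM-UC-3 differed from the mean of the other numbers in 19 members, 4 higher and 15 lower (background 25.9%). Number 2 of T24 differed in 27, 5 higher and 22 lower (background 42.2%). By RPKM, 10 members of number 3 of UM-UC-3 lay below all 6 other libraries of the line and 3 above them. In number 2 of T24, 13 lay below and 2 above. Such positions were not counted over all genes, here or for the other numbers, so these counts have no background and nothing is read from them.

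LDHA and most lower enzymes fell in these libraries. LDHA was at 67.0 to 76.7 RPKM in number 3 of UM-UC-3 and 143 to 194 in its other 6 libraries, a log2 difference of -1.25 (SE 0.13, adjusted p = 7.33e-07). It was at 34.6 to 42.9 RPKM in number 2 of T24 and 92.5 to 145 in the other 6, a log2 difference of -1.59 (SE 0.13, adjusted p = 1.42e-08). PGAM1 was at 25.0 to 31.2 against 64.4 to 91.2 RPKM in UM-UC-3 and 62.3 to 77.2 against 103 to 174 in T24. These ranges did not overlap. The log2 differences of PGAM1 were -1.38 (SE 0.12) and -1.06 (SE 0.12). PKM was at 77.8 to 99.7 against 124 to 159.6 RPKM in UM-UC-3 and 115 to 129 against 224 to 304 in T24, also without overlap, with -0.61 (SE 0.10) and -1.15 (SE 0.11). LDHA as a share of the lactate dehydrogenase RPKM was 14.7%, 16.9% and 17.0% in the siNC, siACAT1-1 and siACAT1-2 libraries of number 3 of UM-UC-3. In number 2 of T24 the shares were 20.0%, 16.5% and 16.4%.

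ENO1 fell by 0.46 and 0.87 on the log2 scale in number 3 of UM-UC-3 and number 2 of T24, and PGK1 fell by 0.82 and 0.53. GAPDH, often used to scale other genes, was at 391 to 456 RPKM in number 2 of T24 against 623 to 799, a log2 difference of -0.86 (SE 0.09). In number 3 of UM-UC-3 its log2 difference was -0.06 (SE 0.09), which did not pass the test. Of the 11 members of upper glycolysis, 9 were lower in number 2 of T24, where 20.5% of all genes were lower, among them ALDOC (-1.23), GPI (-1.12) and PFKL (-0.91). In number 3 of UM-UC-3, 5 were lower, where 13.0% of all genes were lower, among them PFKFB4 (-1.41), a bifunctional enzyme of the PFKFB3 family, and TPI1 (-0.52). Reads on 17 genes, the glycolytic enzymes without PFKFB3 and PFKFB4 but with LDHA and LDHB, were 0.606%, 0.592% and 0.644% of all counted reads in number 2 of T24. In its other 6 libraries they were 0.961% to 1.19%.

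Other members were higher than the mean of the other numbers in the libraries where the enzymes fell. In T24 this did not always set number 2 apart from number 3. DDIT4 was at 126 to 153 RPKM in number 3 of UM-UC-3 against 33.2 to 82.4, without overlap, a log2 difference of 1.31 (SE 0.19, adjusted p = 3.14e-05). It was at 50.9 to 82.2 in number 2 of T24 against 10.5 to 113, with overlap, a log2 difference of 1.09 (SE 0.19, adjusted p = 1.17e-04). The other numbers of T24 were at 10.5 to 27.8 (number 1) and 37.6 to 113 (number 3), so number 2 overlapped number 3. RP11-442H21.2, the gene on its opposite strand, was at 267 to 324 RPKM against 69.7 to 174 in UM-UC-3 and at 106 to 172 against 22.1 to 239.8 in T24. It was high where DDIT4 was high, and whether they share reads was not tested. VEGFA was higher by 0.74 (SE 0.14) and 1.32 (SE 0.14) and SLC2A3 by 1.33 (SE 0.22) and 0.92 (SE 0.20) on the log2 scale. By RPKM, VEGFA overlapped the other libraries in both lines and SLC2A3 did so in T24. VEGFA was at 9.91 to 13.5 RPKM in number 2 of T24, 1.53 to 4.64 in number 1 and 6.19 to 12.5 in number 3. HK1 rose in number 3 of UM-UC-3, at 6.57 to 8.59 RPKM against 3.63 to 5.99, a log2 difference of 0.78 (SE 0.11, adjusted p = 2.16e-05). In number 2 of T24 its log2 difference was 0.08 (SE 0.11). HIF1A rose in number 2 of T24, at 32.1 to 37.1 RPKM against 17.1 to 28.2, a log2 difference of 0.68 (SE 0.12, adjusted p = 1.59e-04). In number 3 of UM-UC-3 its log2 difference was -0.11 (SE 0.13). Whether the shifts differ between the lines was not tested. BNIP3 was lower by 0.82 and 0.46 and ADM by 0.82 and 0.67, so the hypoxia response genes were called in both directions.

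**Figure D4:**
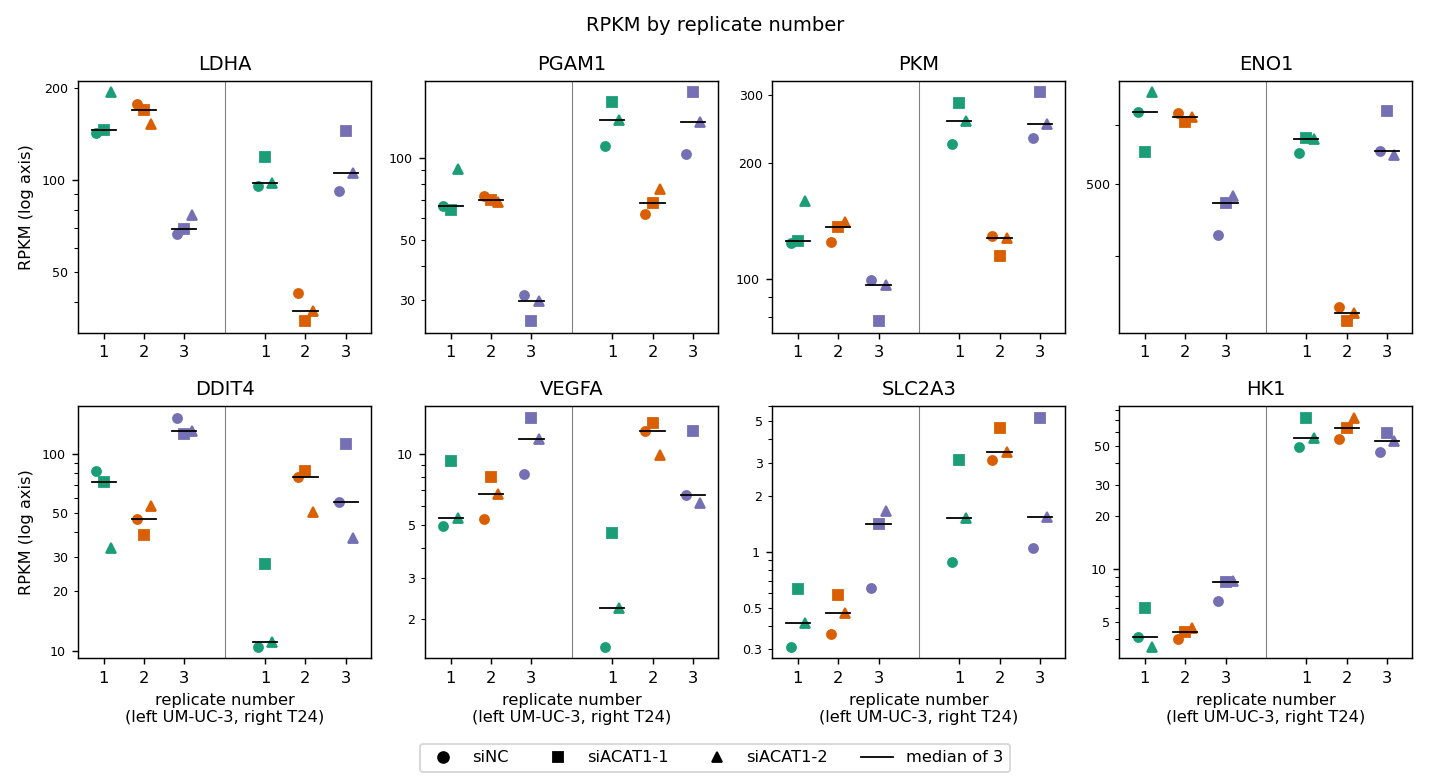
RPKM (log axis) of 8 members by replicate number (x axis, UM-UC-3 on the left and T24 on the right of each panel), with 1 symbol per siRNA and a line at the median of the 3 libraries. LDHA, PGAM1, PKM and ENO1 are lowest in number 3 of UM-UC-3 and number 2 of T24, and VEGFA and DDIT4 are lowest in number 1 of T24.

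The remaining numbers were compared in the same way, and the 3 contrasts of a line sum to 0. A number that stands apart therefore shifts the contrasts of the others the opposite way, and their counts are not separate movements. Number 1 of T24 had 23 members called, 16 higher and 7 lower (background 25.7%), and 14 without its siNC library. LDHA was at 96.1 to 119 RPKM in number 1 and 92.5 to 145 in number 3, and PKM at 224 to 286 and 232 to 304, so these numbers overlapped and number 2 alone lay apart. By RPKM, 2 members of number 1 lay below all 6 other libraries and 0 above. DDIT4 fell to 10.5 to 27.8 RPKM, a log2 difference of -2.03, and VEGFA to 1.53 to 4.64 RPKM, a log2 difference of -1.83. Number 3 of T24 had 20 members higher (55.6%, background 8.66%) and 0 lower, and by RPKM 2 lay above all 6 other libraries and 0 below. This became 5 without siACAT1-1 library 3, which had the highest RPKM of its line for NDRG1 (18.4), P4HA1 (38.5) and DDIT4 (113). Number 2 of UM-UC-3 had 11 called, 9 higher and 2 lower (background 17.0%). It had 3 without siNC library 2, 2 without siACAT1-1 library 2, and 6 without siACAT1-1 library 1 or siACAT1-2 library 3. Number 1 of UM-UC-3 had 3, PGAM1, LDHA and BNIP3, all higher (8.33%, background 0.804%). It had 1 without siNC library 1, siACAT1-1 library 3, or siACAT1-2 library 2 or 3.

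**Figure D5:**
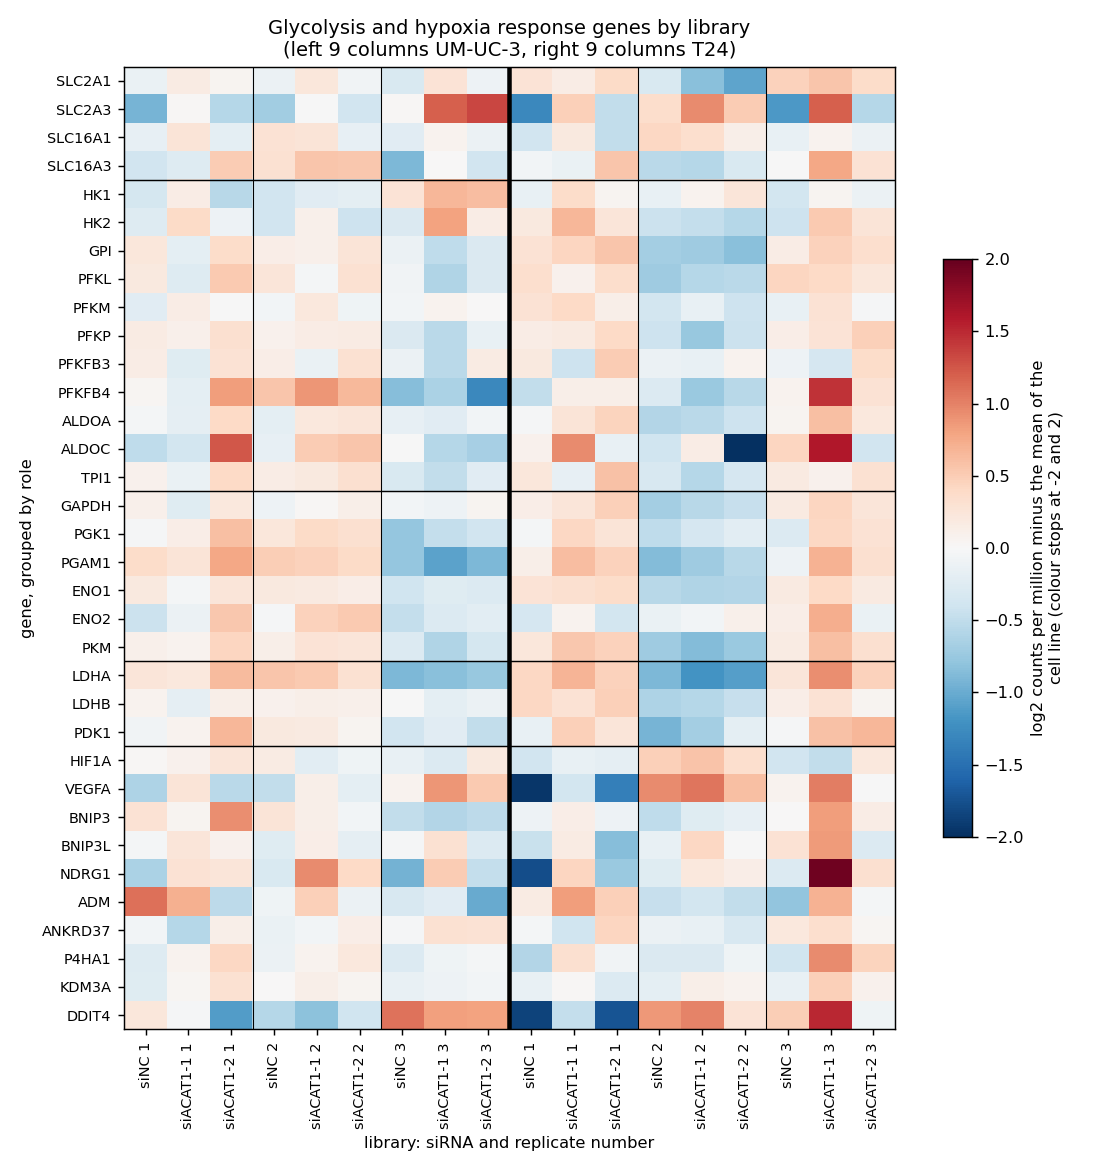
Log2 CPM (counts scaled to the library total) of 34 members (rows, grouped by role) in each library (columns, ordered by replicate number and then siRNA), as the difference from the mean of the 9 libraries of the cell line. The blue blocks of glycolytic enzymes in number 3 of UM-UC-3 and number 2 of T24, and the blue VEGFA and DDIT4 cells in number 1 of T24, run across all 3 siRNAs.

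Markers of cell state moved with the same numbers. The summed RPKM of 10 proliferation genes was 226 to 339.6 in number 3 of UM-UC-3 against 424 to 549 in the others. By the test 9 of the 10 fell, where 13.0% of all genes were lower. In number 2 of T24 it was 131 to 279 against 220.0 to 495, and 8 fell, where 20.5% of all genes were lower. A list of 12 genes held ATF4, the factor of the amino acid and stress response, and its targets. They summed to 971 to 1229 RPKM in number 3 of UM-UC-3 against 233 to 820.5. Of them 9 rose, where 2597 of all 20144 genes were higher. In number 2 of T24 they summed to 628 to 766 against 226 to 628, and 8 rose, where 4362 of all 20144 genes were higher. The 15 urothelial markers summed to 302 to 429 RPKM in number 2 of T24 against 745 to 1101. In number 3 of UM-UC-3 they summed to 131 to 186 against 131 to 211. Most of the T24 sum was KRT7, KRT8 and KRT18, so its fall is mainly that of these keratins. The F test of the number in T24 called these keratins, KRT19, FOXA1 and EPCAM, where 43.9% of all genes were called. It did not call GATA3, PPARG, TP63, UPK1A or UPK2. The 12 markers of other cells summed to 4.74 to 14.5 RPKM over the libraries, most of it HBA1, and 0 of the 6 that were tested were called in number 3 of UM-UC-3 or number 2 of T24. The part of these states in the members' shifts was not tested.

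Related genes outside the 36 were read from further lists, in the mean of the 4 siRNA comparisons with the replicate number. Of 20 further glycolysis genes tested 2 were called (beside 12.4% of all genes), with a list median of 0.05 on the log2 scale. They were HKDC1, a further hexokinase, at 0.82 and BSG, the chaperone of the lactate carriers, at -0.31. Of 47 further HIF targets 17 were called, 15 higher and 2 lower (36.2%, where 12.4% of all genes were called). Their median was 0.25 beside -0.00 for all genes, and those with the smallest p were BHLHE41 (0.78), TFRC (0.51) and JMJD6 (0.43). Of 17 oxygen sensing genes 2 rose, where 5.95% of all genes rose. They were CUL2 (0.24) and EPAS1 (0.64), which encodes another HIF alpha subunit. Of 14 genes of pyruvate entry into the mitochondrion 3 were called (beside 12.4% of all genes). They were DLAT (-0.38), PDHX (0.28) and PDPR (-0.36), and DLAT and PDHX are parts of the pyruvate dehydrogenase complex. All 10 proliferation genes fell, with a median of -0.53, where 1302 of all 20144 genes were lower. Among the 11 urothelial markers tested 3 keratins were lower and 0 were higher. Of the 12 genes of ATF4 and its targets, 1 was higher and 2 were lower, where 12.4% of all genes were called. The part of these changes in those of the members was not tested. Without the replicate number 0 genes of any of these lists passed in that mean (background 0.223%). The medians were then 0.08 for further glycolysis, 0.23 for further HIF targets, 0.10 for oxygen sensing, -0.08 for pyruvate entry and -0.43 for proliferation.

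Between replicate numbers the further lists had smaller medians than the members. In number 2 of T24, 10 of 20 further glycolysis genes were called (beside 42.2% of all genes), 5 in each direction. Their median log2 difference was -0.11, against -0.70 for the members and 0.00 for all genes. In number 3 of UM-UC-3, 6 were called (beside 25.9% of all genes), with a median of -0.10 against -0.35 for the members and 0.01 for all genes. Of the 47 further HIF targets 30 were called in number 2 of T24, 14 higher and 16 lower (beside 42.2% of all genes), with a median of 0.09. In number 3 of UM-UC-3, 18 were called, 3 higher and 15 lower (beside 25.9% of all genes), with a median of -0.15. The 6 lower enzymes had medians of -0.86 in number 2 of T24 and -0.54 in number 3 of UM-UC-3. The 12 hypoxia response genes had medians of -0.16 and -0.13.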

How the data were processed

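RNA of 18 cultures (6 groups of 3) was sequenced after a stranded mRNA preparation with unique molecular identifiers. Per the labels and the study's methods, the authors trimmed reads with Trimmomatic 0.36, aligned them to GRCh38 with STAR 2.5.3 and deposited raw read counts per gene from featureCounts (Subread 1.5.1). The authors also deposited RPKM values, which matched RPKM recomputed from the counts and gene lengths and serve here as levels. The annotation release, strand setting, treatment of reads with several matches and use of the identifiers are not given in the sources used here, so paralogs and genes on opposite strands may share reads.

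Counts were scaled by TMM and tested with edgeR 4.0.16 (R 4.3.3) by the quasi-likelihood test after the filter filterByExpr, in 1 model of the 6 groups, and p-values were adjusted by Benjamini-Hochberg over all 20144 genes tested, with a call at an adjusted p below 0.05. The SE of a log2 fold change was its size divided by the square root of the test's F. The study's methods give no replicate term, so the model of groups alone is the main one. The labels number the libraries 1 to 3 in each group, and samples with the same number within a cell line deviated together (correlations of 0.115 to 0.576 in UM-UC-3 and 0.356 to 0.686 in T24, against -0.545 to 0.269 and -0.567 to 0.210 for different numbers), but not across the lines (-0.327 to 0.211). Every same-number pair was above 0.1, so the number was used as a block within cell line. Counts of calls are given from both models. Fold changes of single members against siNC are from the blocked model. The labels call the libraries biological replicates of independent experiments. A number was compared with the mean of the other numbers of its line in the blocked model.

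Depth was 25163490 to 34417230 counted reads per library, and 3 libraries per group limit the precision. Alternatives were DESeq2 1.42.0 and its size factors, limma-voom (limma 3.58.1), no filter on low counts, each cell line alone, leaving out each library, and, added after seeing the data, leaving out the replicate numbers that stood apart. The fits were tested on simulated data. All 36 members are described, and from each further list at most the 3 called genes with the smallest p are named. The members and lists were chosen with earlier results of these data known. Promoter windows came from RefSeq and were matched by symbol. Lists of genes got no test.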

Additional observations from a re-analysis of the deposited data

Results flagged for a closer look

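PFKFB3 differed between the siRNAs against ACAT1. The log2 difference, siACAT1-2 minus siACAT1-1 over both cell lines, was 0.59 (SE 0.11, edgeR adjusted p = 0.0129), and it was listed because this difference itself passed the test. Within every replicate number of both lines siACAT1-2 was above siACAT1-1, and the call was kept in all 18 fits that left out 1 library, with values from 0.53 to 0.64. The cause was not tested.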

How the results depend on the processing

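With the replicate block, the number of members called was 3 for siACAT1-1 and 0 for siACAT1-2 in UM-UC-3, 11 and 2 in T24, 10 for the mean of the 4 comparisons, 0 for the difference between cell lines and 13 for the difference between the siRNAs, where the groups alone gave 0, 0, 0, 0, 0, 0 and 1. The control comparison of the lines has no blocked form, because the numbers pair libraries only within a cell line.

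Without a filter on low counts, the groups alone gave 1 member for siACAT1-1 in UM-UC-3, 3 for siACAT1-1 in T24, 3 for the mean and 6 between the siRNAs. In the model with the number, 10 were called for number 1 of UM-UC-3 (3 with the filter). DESeq2 gave 2 for siACAT1-1 in T24, 1 for the mean and 2 between the siRNAs. Number 1 of UM-UC-3 had 7 by DESeq2, and 6 when UM-UC-3 was fitted alone. Without number 3 of UM-UC-3 and number 2 of T24, chosen after seeing the data, the groups alone gave 4 for siACAT1-1 in T24, 2 for the mean and 4 between the siRNAs, and the block gave 1 and 2 for siACAT1-1 and siACAT1-2 in UM-UC-3.

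Leaving out 1 library, the groups alone gave 0 to 2 members for siACAT1-1 in T24, 0 to 1 for the mean, 1 to 2 between the siRNAs and 8 to 16 between the control lines. The comparisons of numbers gave 1 to 4, 2 to 14 and 14 to 21 in UM-UC-3 and 14 to 23, 23 to 28 and 5 to 21 in T24. With the block the ranges were 0 to 5 and 0 to 2 in UM-UC-3, 3 to 18 and 0 to 4 in T24, and 5 to 13 for the mean. Other counts stayed within 1.5 times their value. Of the values of single members under any alternative, 17830 kept their call status, 231 gained a call, 359 lost one and 0 reversed a call. Direction was compared only where the main or the alternative fit called the member, and not for the F tests. The causes were not tested.

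Depth limits CA9 and EGLN3, which had 113 and 129 reads in all. A member that did not pass the test at 3 libraries a group is not shown to be unchanged.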
